A study of Homo sapiens with 18 samples.

Results

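The genes described here form a module of 46 genes of mitosis, the centromere and the spindle checkpoint, the surveillance system that holds chromosome separation until every chromosome is attached. The members were given by name and found through the gene symbol of each probe set in the platform annotation. All 46 were measured, through 999 probe sets, among 16260 genes with at least 3 probe sets. SGO1 stood on the platform under an older name. RNA of 3 human myeloid leukaemia and lymphoma lines was measured on Affymetrix exon arrays, which carry probe sets along the exons of each gene. HL60 cells were exposed for 3 days to 30 nM phorbol 12-myristate 13-acetate (PMA) or to its vehicle, dimethyl sulfoxide (DMSO) diluted 1000 times, and so were THP-1 cells and U937 cells. Each of the 6 groups held 3 samples, 18 in all. HL60 is a promyelocytic line, THP-1 a monocytic leukaemia line and U937 a line of monocytic character from a histiocytic lymphoma. PMA switches on protein kinase C, and it is widely used to drive these lines toward macrophage-like cells.

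Cells enter mitosis when cyclin A and cyclin B activate their kinase, which the CDC25 phosphatases release from inhibition. Polo-like and Aurora kinases then build the spindle, kinetochores assembled on centromeric chromatin bind its microtubules, and condensin packs the chromosomes. The checkpoint proteins hold CDC20, the activator of the anaphase-promoting complex, until attachment is complete. Separase then cuts cohesin, and a contractile ring divides the cell. Most of these genes are transcribed in late S phase, G2 and mitosis, through the MuvB complex with B-MYB (MYBL2) and FOXM1, and they are silent or low in cells that have left the cycle.

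Gene values are means of the deposited log2 probe-set values of a gene, and PMA effects are differences in log2 units ± SE from limma, fitted to all genes together. A gene was called at an adjusted p under 0.05 (Benjamini-Hochberg over all genes). The labels number the samples without saying whether they are separate cultures, so each p-value reflects the spread between numbered samples, which may be technical. Arrays of different lines shared at most 7 tied values and the U937 arrays numbered 2 at most 5 with their own line, against at least 39 between other arrays of a line, so the lines may have been normalized apart. The U937 PMA 2 array had the lowest median over all probe sets, 6.18, and 83228 distinct values, where every other array had at least 214471. Its values may be kept at another precision, so its few ties do not bear on how it was normalized. That does not hold for U937 DMSO 2, which had 219602 distinct values and shared 1 to 5 with arrays of its line. U937 DMSO 2 may have been normalized apart from the other arrays of its group. Of 10 myeloid marker genes, 9 were measured, and 8 or 9 of them exceeded 5.17, the 30th percentile of probe sets, in each group. At most 1 of 5 T cell markers did so in any group, as did 1 or 2 of 3 erythroid markers, 2 of 4 epithelial markers and all 3 measured B cell markers. The group medians of the B cell markers were 5.39 to 6.24, and their part in the results was not tested.

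PMA lowered nearly the whole module in all 3 lines. In HL60, 43 of 46 members fell and none rose, where 10.7% of all tested genes fell and 12.3% rose. In THP-1, 44 fell and none rose (background 13.2% lower, 9.37% higher), and in U937 45 fell and none rose (background 16.5% lower, 5.50% higher). The median effect over the members was -2.84 in HL60, -2.01 in THP-1 and -2.04 in U937, beside 0.13, 0.04 and -0.07 over all genes. In all 3 lines together 40 members fell, where 5.93% of all genes did.
The fall was at least 2-fold for 42 members in HL60, 42 in THP-1 and 43 in U937, beside 6.72%, 7.37% and 10.1% of all genes. All 3 PMA samples lay below all 3 DMSO samples for 43 members in HL60, 44 in THP-1 and 45 in U937, against 16.4%, 19.8% and 19.5% of all genes. With bulk RNA, fewer dividing cells and less of each RNA per dividing cell cannot be told apart.

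**Figure D1:**
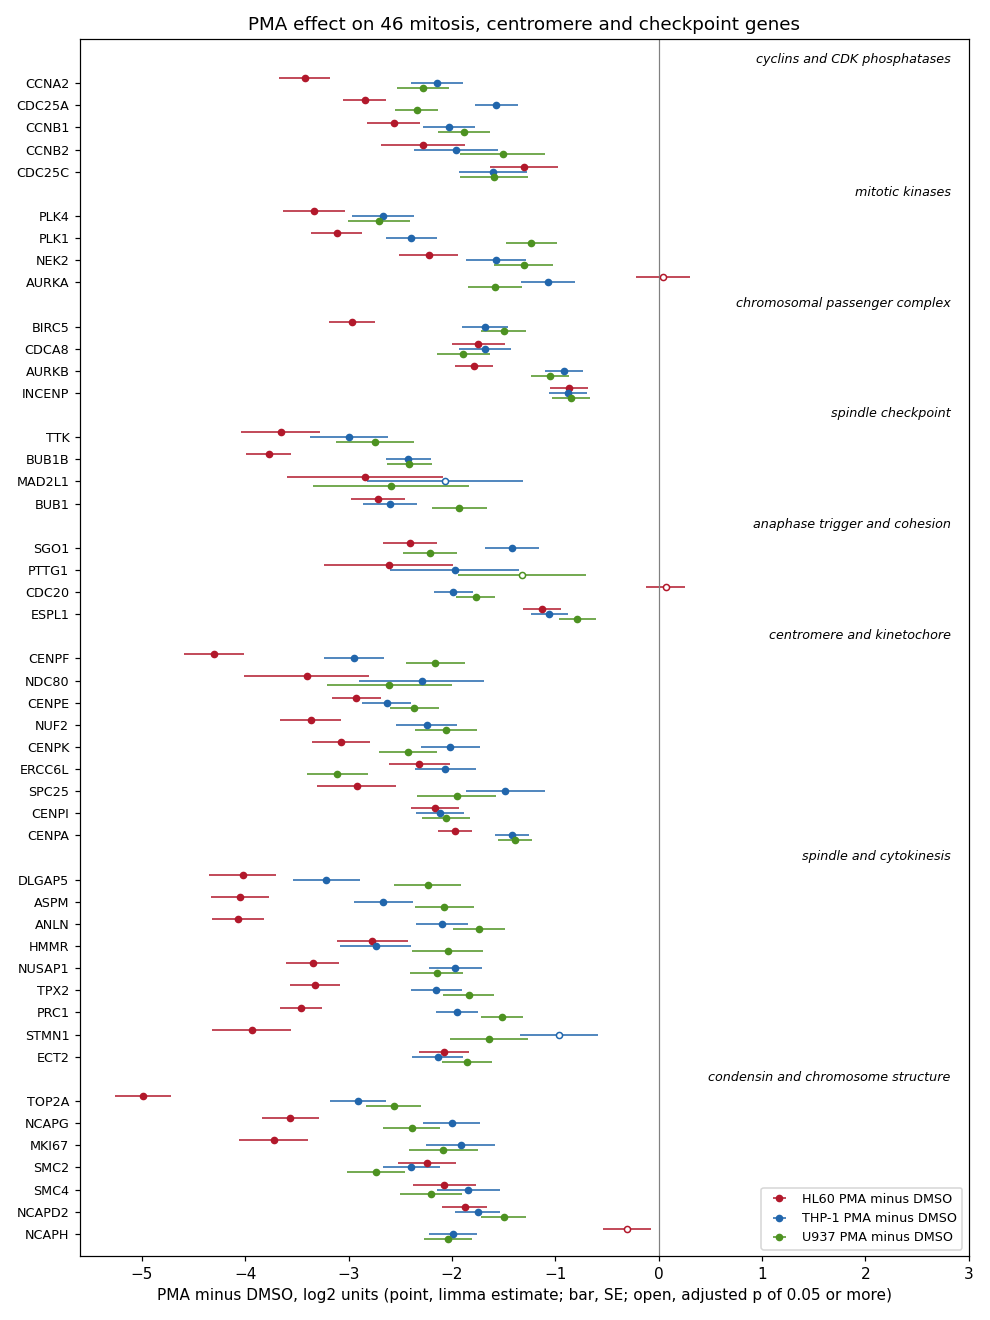
PMA minus DMSO in log2 units for the 46 genes by class, with 1 point per line (HL60 red, THP-1 blue, U937 green), bars of 1 SE and open points where the adjusted p was 0.05 or more. Nearly all points lie left of 0, HL60 is usually the leftmost, and CDC20, AURKA and NCAPH in HL60 sit near 0.

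The module's median over its 46 members showed the change in each sample. It was 5.05, 4.97 and 5.17 in HL60 samples 1, 2 and 3 with PMA, against 8.38, 8.15 and 7.85 with DMSO. In THP-1 it was 5.97, 6.34 and 6.78 with PMA, against 8.54, 8.78 and 8.07 with DMSO. In U937 it was 7.14, 7.20 and 7.08 with PMA, against 9.24, 9.03 and 8.68 with DMSO. In no line did the PMA and DMSO samples overlap. In HL60 with PMA, 24 members had a group mean under 5.17, against 1 member, ERCC6L, with DMSO. Signals that low are close to the array's background, so the falls of these members in HL60 are approximate. In THP-1 with PMA 9 members lay under that level, and in U937 with PMA 5, against none with DMSO in either line.

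The promoters of genes of this kind are known for a CHR element, whose core is TTTGAA, and for CCAAT boxes bound by NF-Y. RefSeq windows from 250 bases before to 50 bases after a transcription start (GRCh38.p14) were at hand for 42 members and 12952 measured genes. TPX2, TTK, AURKA and BIRC5 had no window in that table. TTTGAA on either strand stood in 57.4% of the 54 member windows, against 12.0% of all 18640 windows. CCAAT on either strand stood in 66.7% of the member windows, against 34.5% of all. Both motifs occurred together in 22 member windows (40.7%), against 4.71% of all. TTTGAA lay within 50 bases of the start in 44.4% of member windows, against 3.43% of all. The E2F-type motif TTTGGCGC occurred in 3 member windows (5.56% against 0.842%) and TTTCGCGC in none (0.644% of all), and the other CHR core TTCGAA was present in 3 (5.56% against 1.56%). A match to these letters is a description of the window and not evidence of binding.

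Windows of the 5 members with the largest mean fall among those that hold both motifs are shown first, then those of the 3 members with the smallest mean fall among those with a window. They lie at TOP2A (chr17:40417847-40418146, minus strand), DLGAP5 (chr14:55191536-55191835, minus strand), CENPF (chr1:214602945-214603244, plus strand), ASPM (chr1:197146620-197146919, minus strand), MKI67 (chr10:128126374-128126673, minus strand), INCENP (chr11:62123761-62124060, plus strand), ESPL1 (chr12:53268049-53268348, plus strand) and CDC20 (chr1:43358731-43359030, plus strand). Sequences run 5′ to 3′ on the gene's strand, and capitals mark TTTGAA as well as TTCGAA and CCAAT or their complements. In MKI67 a CHR core and a CCAAT on the other strand share letters.
TOP2A: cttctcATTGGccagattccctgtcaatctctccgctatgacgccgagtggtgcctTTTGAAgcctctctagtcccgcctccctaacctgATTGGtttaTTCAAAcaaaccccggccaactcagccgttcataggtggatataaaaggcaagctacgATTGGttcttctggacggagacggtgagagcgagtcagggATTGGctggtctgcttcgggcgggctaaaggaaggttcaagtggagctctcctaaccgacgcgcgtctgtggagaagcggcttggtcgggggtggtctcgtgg
DLGAP5: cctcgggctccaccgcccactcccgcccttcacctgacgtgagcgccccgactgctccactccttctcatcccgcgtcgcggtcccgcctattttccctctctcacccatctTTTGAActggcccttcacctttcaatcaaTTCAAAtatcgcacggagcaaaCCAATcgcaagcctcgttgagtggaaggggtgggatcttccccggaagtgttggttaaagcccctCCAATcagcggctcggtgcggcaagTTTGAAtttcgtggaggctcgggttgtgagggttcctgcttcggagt
CENPF: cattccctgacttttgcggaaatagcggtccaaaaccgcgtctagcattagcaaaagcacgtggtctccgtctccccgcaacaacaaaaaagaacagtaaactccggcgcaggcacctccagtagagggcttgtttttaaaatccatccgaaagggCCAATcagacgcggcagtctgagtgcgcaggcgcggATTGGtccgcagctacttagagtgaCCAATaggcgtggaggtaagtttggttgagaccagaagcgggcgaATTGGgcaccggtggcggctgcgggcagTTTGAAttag
ASPM: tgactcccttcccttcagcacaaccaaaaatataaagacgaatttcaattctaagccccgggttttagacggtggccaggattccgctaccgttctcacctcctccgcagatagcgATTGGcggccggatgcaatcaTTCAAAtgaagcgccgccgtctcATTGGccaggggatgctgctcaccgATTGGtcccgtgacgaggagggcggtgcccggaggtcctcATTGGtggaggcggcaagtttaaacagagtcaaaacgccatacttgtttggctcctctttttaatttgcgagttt
MKI67: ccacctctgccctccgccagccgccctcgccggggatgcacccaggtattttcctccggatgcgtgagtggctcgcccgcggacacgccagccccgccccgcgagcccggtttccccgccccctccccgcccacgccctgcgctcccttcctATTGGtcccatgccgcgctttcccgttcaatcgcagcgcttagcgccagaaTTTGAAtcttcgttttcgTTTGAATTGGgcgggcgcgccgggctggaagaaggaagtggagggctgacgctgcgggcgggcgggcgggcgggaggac
INCENP: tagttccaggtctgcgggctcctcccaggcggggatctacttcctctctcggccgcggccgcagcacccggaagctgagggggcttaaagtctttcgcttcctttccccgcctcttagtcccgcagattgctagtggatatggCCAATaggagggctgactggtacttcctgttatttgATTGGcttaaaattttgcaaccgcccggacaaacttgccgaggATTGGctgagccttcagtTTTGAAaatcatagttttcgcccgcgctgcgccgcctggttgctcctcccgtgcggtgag
ESPL1: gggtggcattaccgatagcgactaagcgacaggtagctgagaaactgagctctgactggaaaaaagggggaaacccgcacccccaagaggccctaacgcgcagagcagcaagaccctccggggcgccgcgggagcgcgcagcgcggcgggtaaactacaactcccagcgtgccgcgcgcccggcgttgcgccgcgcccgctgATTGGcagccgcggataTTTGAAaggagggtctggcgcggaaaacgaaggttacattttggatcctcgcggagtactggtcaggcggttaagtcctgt
CDC20: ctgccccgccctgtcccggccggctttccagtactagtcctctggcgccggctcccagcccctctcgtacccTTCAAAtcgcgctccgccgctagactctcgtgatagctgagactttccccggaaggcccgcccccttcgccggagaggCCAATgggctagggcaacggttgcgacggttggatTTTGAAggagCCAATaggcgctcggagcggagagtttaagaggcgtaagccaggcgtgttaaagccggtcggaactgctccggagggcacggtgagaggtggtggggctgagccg
The windows of the 3 members with small mean falls also hold both motifs. The window of CDC20, which did not pass the test in HL60, holds TTTGAA 2 times and CCAAT 2 times. The window of NCAPH, also not called in HL60, holds CCAAT but not TTTGAA.

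The 5 cyclins and CDC25 phosphatases of the module, which start mitosis, all fell in every line. CDC25B is not a member and was counted in a further list. CCNA2, cyclin A, had 5.43, 5.71 and 6.14 with PMA, against 9.17, 9.44 and 8.95 with DMSO in HL60. In THP-1 it had 6.97, 6.95 and 7.87 with PMA, against 9.56, 9.64 and 9.02 with DMSO, and in U937 7.80, 7.79 and 7.80 with PMA, against 10.06, 10.21 and 9.97 with DMSO. The PMA samples were clear of the DMSO samples in each line, and the falls were 3.43 ± 0.25, 2.14 ± 0.25 and 2.28 ± 0.25 (limma adjusted p = 1.15e-08, 5.57e-06 and 3.94e-06). CCNB1, the cyclin B of mitotic entry, had 6.20, 5.74 and 5.83 with PMA, against 8.83, 8.59 and 8.05 with DMSO in HL60, 7.89, 7.70 and 8.26 with PMA, against 10.26, 10.29 and 9.39 with DMSO in THP-1 and 8.75, 8.47 and 8.68 with PMA, against 10.64, 10.65 and 10.25 with DMSO in U937. It fell by 2.57 ± 0.25, 2.03 ± 0.25 and 1.88 ± 0.25 in that order of lines. CCNB2 fell by 2.28, 1.96 and 1.51. CDC25A, the phosphatase that also acts at the start of S phase, fell by 2.85, 1.57 and 2.34. CDC25C, the phosphatase of mitotic entry, had the smallest mean effect of the class. It had 4.38, 5.05 and 4.61 with PMA, against 6.44, 6.05 and 5.47 with DMSO in HL60, 5.83, 5.82 and 5.62 with PMA, against 7.63, 7.70 and 6.74 with DMSO in THP-1 and 5.86, 4.83 and 5.47 with PMA, against 7.34, 7.21 and 6.39 with DMSO in U937, and fell by 1.31 ± 0.33, 1.60 ± 0.33 and 1.59 ± 0.33.

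Of the mitotic kinases, PLK4, which starts centriole duplication, had the largest mean fall. Its values were 3.96, 3.83 and 3.94 with PMA, against 7.48, 7.39 and 6.86 with DMSO in HL60, 4.23, 5.07 and 5.33 with PMA, against 7.87, 7.94 and 6.83 with DMSO in THP-1 and 5.09, 4.96 and 4.74 with PMA, against 7.80, 7.81 and 7.29 with DMSO in U937. The falls were 3.33 ± 0.30, 2.67 ± 0.30 and 2.71 ± 0.30, and no PMA sample reached a DMSO sample. PLK1, needed for spindle assembly and mitotic exit, differed more between lines. It stood at 6.08, 6.36 and 6.82 with PMA, against 9.35, 9.63 and 9.62 with DMSO in HL60, at 7.66, 7.20 and 8.39 with PMA, against 10.23, 10.20 and 10.00 with DMSO in THP-1 and at 9.16, 9.46 and 9.56 with PMA, against 10.60, 10.57 and 10.71 with DMSO in U937. Its fall was 3.11 ± 0.25 in HL60, 2.40 ± 0.25 in THP-1 and 1.23 ± 0.25 in U937, where the PMA samples stood at 9.16 or higher. NEK2, a centrosome kinase, fell by 2.23, 1.57 and 1.31. AURKA, the centrosome and spindle-pole kinase, fell in THP-1 and U937 and is described with the HL60 exceptions.

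All 4 members of the chromosomal passenger complex, which corrects wrong attachments and acts in cytokinesis, fell in each line. BIRC5, or survivin, had 5.30, 5.38 and 5.86 with PMA, against 8.78, 8.30 and 8.37 with DMSO in HL60, 7.59, 7.26 and 7.26 with PMA, against 9.28, 9.33 and 8.55 with DMSO in THP-1 and 6.68, 6.78 and 6.74 with PMA, against 8.41, 8.28 and 8.01 with DMSO in U937. It fell by 2.97 ± 0.22, 1.68 ± 0.22 and 1.50 ± 0.22, with no overlap of treatments. AURKB, the kinase of the complex, had 5.83, 5.95 and 6.18 with PMA, against 7.91, 7.67 and 7.75 with DMSO in HL60, 7.02, 6.34 and 6.59 with PMA, against 7.56, 7.64 and 7.51 with DMSO in THP-1 and 7.81, 7.88 and 7.75 with PMA, against 9.19, 8.73 and 8.66 with DMSO in U937. AURKB fell by 1.79 ± 0.19, 0.92 ± 0.19 and 1.05 ± 0.19. INCENP, the scaffold, had nearly equal falls of 0.86 ± 0.18, 0.88 ± 0.18 and 0.85 ± 0.18, and its mean absolute effect was the smallest of all members. Its samples were 6.96, 7.26 and 7.45 with PMA, against 7.82, 8.19 and 8.24 with DMSO in HL60, 7.37, 7.0 and 7.52 with PMA, against 8.10, 8.19 and 8.23 with DMSO in THP-1 and 7.60, 7.75 and 8.0 with PMA, against 8.54, 8.59 and 8.76 with DMSO in U937. CDCA8, or borealin, fell by 1.75, 1.68 and 1.89.

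The spindle checkpoint genes fell by 1.93 log2 units or more wherever they were called. TTK, the kinase known as MPS1 that starts the checkpoint signal, had 3.82, 3.60 and 3.30 with PMA, against 7.79, 7.38 and 6.53 with DMSO in HL60, 4.18, 5.55 and 5.61 with PMA, against 8.35, 8.60 and 7.39 with DMSO in THP-1 and 5.27, 5.20 and 4.97 with PMA, against 8.18, 7.89 and 7.60 with DMSO in U937. TTK fell by 3.66 ± 0.38, 3.00 ± 0.38 and 2.75 ± 0.38. BUB1B, the BubR1 component of the inhibitory complex, had 4.36, 4.57 and 4.88 with PMA, against 8.64, 8.49 and 8.0 with DMSO in HL60, 5.70, 6.02 and 6.49 with PMA, against 8.46, 8.74 and 8.28 with DMSO in THP-1 and 6.46, 6.64 and 6.52 with PMA, against 9.06, 8.98 and 8.83 with DMSO in U937. Its fall was 3.77 ± 0.22 in HL60, 2.42 ± 0.22 in THP-1 and 2.41 ± 0.22 in U937, so the PMA samples of HL60 were the lowest. BUB1, a kinetochore kinase, had 5.97, 5.68 and 5.70 with PMA, against 8.63, 8.54 and 8.32 with DMSO in HL60, 5.86, 6.16 and 7.10 with PMA, against 9.12, 9.26 and 8.54 with DMSO in THP-1 and 7.88, 7.63 and 7.64 with PMA, against 9.88, 9.70 and 9.37 with DMSO in U937, with falls of 2.71 ± 0.26, 2.60 ± 0.26 and 1.93 ± 0.26. MAD2L1, the checkpoint protein that binds CDC20, varied widely between samples of a group. It had 6.65, 4.52 and 4.93 with PMA, against 9.44, 7.88 and 7.30 with DMSO in HL60, 7.10, 7.47 and 5.78 with PMA, against 9.50, 9.89 and 7.15 with DMSO in THP-1 and 7.33, 6.52 and 5.81 with PMA, against 9.91, 9.53 and 8.0 with DMSO in U937. It fell by 2.84 ± 0.76 in HL60 and 2.59 ± 0.76 in U937. In THP-1 its difference was -2.06 ± 0.76 (limma adjusted p = 0.0594), and with the replicate number as a block the adjusted p was 1.19e-05. In THP-1 and U937 the samples numbered 3 were the lowest of their group with either treatment.

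Among the genes that trigger anaphase or guard cohesion, SGO1, shugoshin, which shields centromeric cohesin, had 3.90, 4.05 and 4.26 with PMA, against 6.79, 6.60 and 6.03 with DMSO in HL60, 4.70, 5.10 and 5.39 with PMA, against 6.56, 6.98 and 5.91 with DMSO in THP-1 and 5.07, 5.01 and 5.52 with PMA, against 7.33, 7.40 and 7.51 with DMSO in U937. It fell by 2.41 ± 0.26, 1.42 ± 0.26 and 2.21 ± 0.26. ESPL1, separase, moved little but in all lines, with 6.18, 6.32 and 5.99 with PMA, against 7.31, 7.25 and 7.32 with DMSO in HL60, 5.90, 5.71 and 6.11 with PMA, against 6.90, 7.12 and 6.87 with DMSO in THP-1 and 7.43, 7.02 and 7.72 with PMA, against 8.33, 8.08 and 8.12 with DMSO in U937. Its falls were 1.13 ± 0.18, 1.06 ± 0.18 and 0.79 ± 0.18. PTTG1, securin, the inhibitor of separase, rests on 4 probe sets. It had 6.92, 5.83 and 5.69 with PMA, against 9.66, 8.54 and 8.08 with DMSO in HL60, 8.33, 8.08 and 7.15 with PMA, against 10.38, 10.50 and 8.60 with DMSO in THP-1 and 8.91, 9.34 and 7.53 with PMA, against 10.53, 10.60 and 8.63 with DMSO in U937. It fell by 2.61 ± 0.62 in HL60 and 1.97 ± 0.62 in THP-1. In THP-1 the call was lost without DMSO 1, without DMSO 2 or without PMA 3 (differences -1.70 to -1.62, limma adjusted p from 0.113 to 0.137), and with the replicate block the adjusted p was 2.21e-06. In U937 the groups overlapped, the difference was -1.32 ± 0.62 (limma adjusted p = 0.162), and the replicate block gave 7.07e-05.

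All 9 centromere and kinetochore genes fell in all lines, with class medians of -2.93 in HL60, -2.12 in THP-1 and -2.16 in U937. CENPF, a large outer kinetochore protein, had 3.84, 3.95 and 4.14 with PMA, against 8.36, 8.39 and 8.09 with DMSO in HL60, 5.09, 5.94 and 6.81 with PMA, against 8.83, 9.12 and 8.74 with DMSO in THP-1 and 7.14, 7.33 and 7.05 with PMA, against 9.39, 9.19 and 9.42 with DMSO in U937. The fall was 4.30 ± 0.29 in HL60 (19.7-fold), 2.95 ± 0.29 in THP-1 and 2.16 ± 0.29 in U937. CENPA, the histone H3 variant that marks the centromere, fell least of the class, by 1.97 ± 0.17, 1.42 ± 0.17 and 1.39 ± 0.17. Its samples were tight, at 6.60, 6.60 and 6.61 with PMA, against 8.57, 8.58 and 8.56 with DMSO in HL60, 7.38, 7.44 and 7.61 with PMA, against 9.12, 8.99 and 8.59 with DMSO in THP-1 and 8.35, 8.18 and 8.08 with PMA, against 9.84, 9.56 and 9.39 with DMSO in U937. Of the microtubule-binding NDC80 complex, the 3 subunits in the module and SPC24 of a further list fell in each line. NDC80 fell by 3.41, 2.29 and 2.61, NUF2 by 3.37, 2.25 and 2.06, SPC25 by 2.92, 1.48 and 1.95, and SPC24 by 1.91, 1.24 and 1.54. The SPC25 call in THP-1 was lost without DMSO 2 (difference -1.14, limma adjusted p = 0.0643), and that of NDC80 in THP-1 without DMSO 1 or DMSO 2 (differences -2.02 to -1.87, adjusted p from 0.0507 to 0.0641). With the replicate block the adjusted p in THP-1 was 3.89e-05 for SPC25 and 1.88e-05 for NDC80. CENPE, the kinetochore motor, fell by 2.93, 2.63 and 2.36. CENPI and CENPK belong to the inner kinetochore. CENPI fell by 2.17, 2.12 and 2.05, and CENPK by 3.07, 2.02 and 2.42. ERCC6L, the helicase known as PICH that coats DNA threads in anaphase, fell by 2.32 in HL60, 2.07 in THP-1 and 3.11 in U937, the largest estimate of any member in U937. Its HL60 means were 5.15 with DMSO and 2.83 with PMA, both under 5.17, so its fall there is approximate.

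The spindle and cytokinesis class held several of the largest falls of the module. DLGAP5, which stabilizes microtubules at kinetochores, had 3.92, 3.70 and 3.91 with PMA, against 8.45, 7.63 and 7.52 with DMSO in HL60, 4.78, 5.67 and 5.62 with PMA, against 8.71, 8.92 and 8.09 with DMSO in THP-1 and 7.15, 7.40 and 6.50 with PMA, against 9.60, 9.45 and 8.70 with DMSO in U937. It fell by 4.02 ± 0.32, 3.21 ± 0.32 and 2.23 ± 0.32, and its estimate was the largest of any member in THP-1. ANLN, the anillin scaffold of the contractile ring, fell by 4.07, 2.09 and 1.74. ASPM, a spindle-pole protein, fell by 4.05, 2.66 and 2.07. TPX2, which activates Aurora A on spindle microtubules, fell by 3.33, 2.15 and 1.84. PRC1, which bundles the microtubules of the spindle midzone, fell by 3.46, 1.96 and 1.52. NUSAP1, a microtubule-binding protein, fell by 3.35, 1.97 and 2.15, and HMMR by 2.77, 2.74 and 2.04. ECT2, the exchange factor that activates RhoA for cytokinesis, had 4.90, 4.77 and 4.47 with PMA, against 6.83, 6.98 and 6.57 with DMSO in HL60, 4.20, 4.82 and 5.24 with PMA, against 6.80, 7.28 and 6.59 with DMSO in THP-1 and 5.43, 5.03 and 5.41 with PMA, against 7.20, 7.26 and 6.96 with DMSO in U937. Its falls were close to each other, at 2.08 ± 0.24, 2.14 ± 0.24 and 1.85 ± 0.24. STMN1, stathmin, a protein that takes microtubules apart, had 6.74, 5.46 and 5.91 with PMA, against 10.46, 9.81 and 9.65 with DMSO in HL60, 9.53, 9.44 and 8.73 with PMA, against 10.55, 10.57 and 9.46 with DMSO in THP-1 and 9.50, 9.32 and 8.46 with PMA, against 10.97, 10.96 and 10.27 with DMSO in U937. It fell by 3.94 ± 0.38 in HL60 and by 1.64 ± 0.38 in U937. In THP-1 the groups overlapped, with a difference of -0.96 ± 0.38 (limma adjusted p = 0.0822; 0.000342 with the replicate block).

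TOP2A, the topoisomerase that untangles sister chromatids, had the largest fall of the module in HL60. It had 4.43, 4.29 and 4.63 with PMA, against 9.69, 9.38 and 9.26 with DMSO in HL60, 6.07, 6.88 and 7.64 with PMA, against 9.67, 9.91 and 9.74 with DMSO in THP-1 and 7.34, 7.33 and 7.28 with PMA, against 9.85, 9.71 and 10.09 with DMSO in U937. The fall was 4.99 ± 0.27 in HL60 (31.8-fold, limma adjusted p = 4.34e-10), 2.91 ± 0.27 in THP-1 (5.66e-07) and 2.57 ± 0.27 in U937 (2.86e-06). MKI67, the proliferation antigen Ki-67 that coats mitotic chromosomes, had 4.69, 5.32 and 5.90 with PMA, against 8.97, 9.0 and 9.11 with DMSO in HL60, 5.87, 5.92 and 7.13 with PMA, against 7.81, 8.22 and 8.63 with DMSO in THP-1 and 7.11, 7.69 and 7.84 with PMA, against 9.56, 9.47 and 9.86 with DMSO in U937. It fell by 3.73 ± 0.34, 1.91 ± 0.34 and 2.08 ± 0.34. The condensin subunits NCAPG and NCAPD2 fell in every line, NCAPG by 3.56, 2.00 and 2.39 and NCAPD2 by 1.88, 1.75 and 1.50. The ATPase core of condensin moved by similar amounts in the 3 lines. SMC2 fell by 2.24, 2.39 and 2.73, and SMC4 by 2.07, 1.84 and 2.20.

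**Figure D2:**
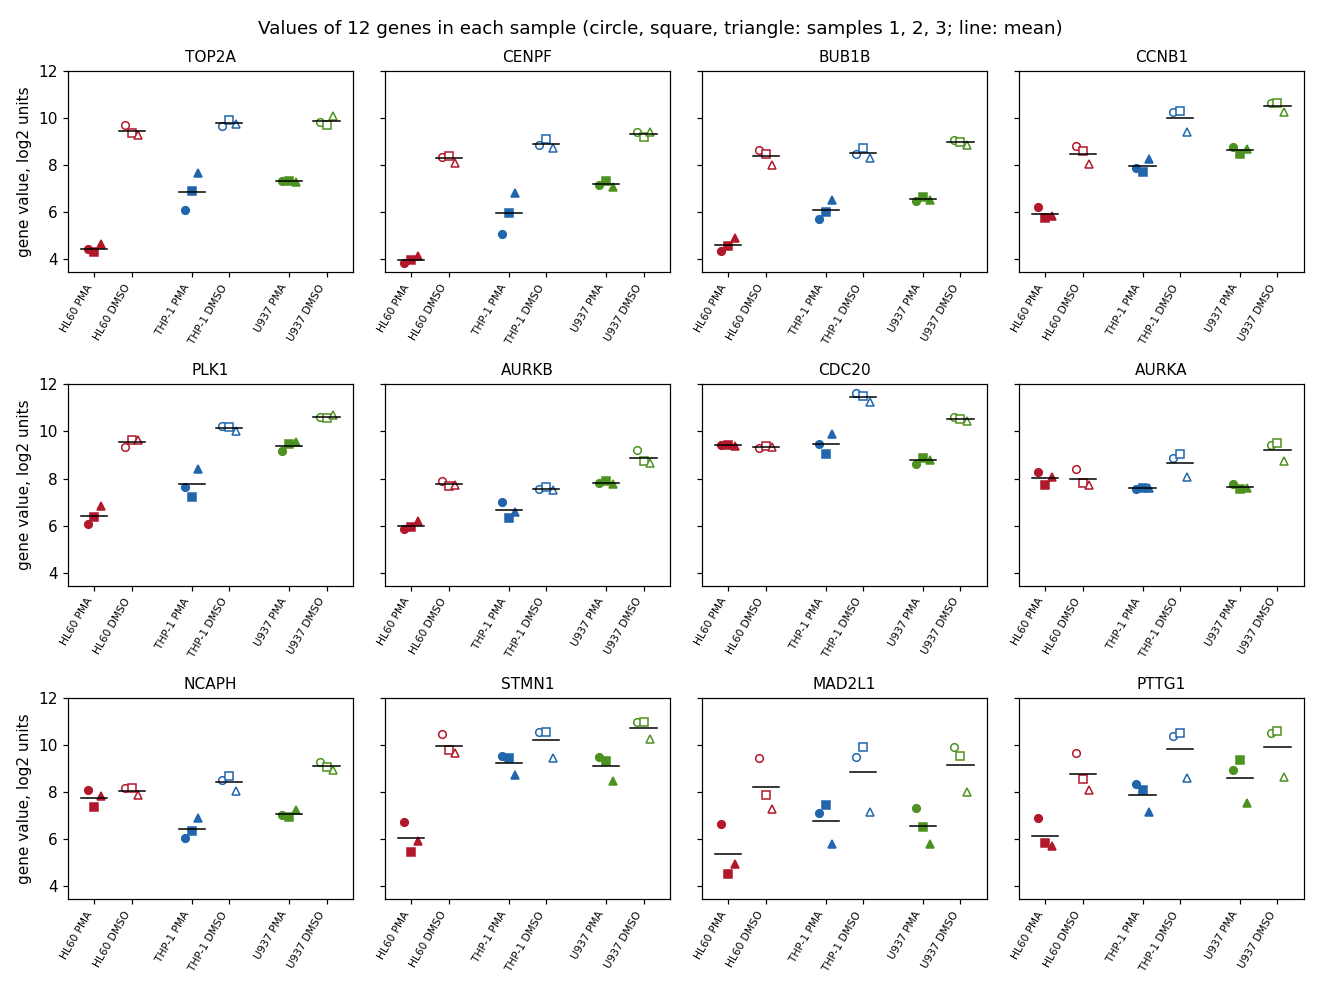
Gene values in log2 units of 12 members in each of the 18 samples, PMA (filled) beside DMSO (open) in each line, with the mean of 3 samples as a line. CDC20, AURKA and NCAPH overlap between treatments in HL60 and fall in THP-1 and U937, while MAD2L1 and PTTG1 vary widely within groups.

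CDC20, AURKA and NCAPH did not pass the test in HL60 although they fell in both other lines. CDC20, the activator of the anaphase-promoting complex, had 9.42, 9.44 and 9.37 with PMA, against 9.28, 9.40 and 9.35 with DMSO in HL60, a difference of 0.07 ± 0.19 (limma adjusted p = 0.836). It had 9.47, 9.02 and 9.91 with PMA, against 11.62, 11.51 and 11.24 with DMSO in THP-1 and 8.62, 8.88 and 8.80 with PMA, against 10.62, 10.54 and 10.45 with DMSO in U937, where it fell by 1.99 ± 0.19 and 1.77 ± 0.19. AURKA had 8.28, 7.72 and 8.08 with PMA, against 8.41, 7.80 and 7.74 with DMSO in HL60, with a difference of 0.05 ± 0.26 (adjusted p = 0.921), whose sign turned under 6 alternatives. AURKA had 7.57, 7.58 and 7.61 with PMA, against 8.85, 9.05 and 8.06 with DMSO in THP-1 and 7.78, 7.54 and 7.60 with PMA, against 9.41, 9.50 and 8.75 with DMSO in U937, with falls of 1.07 ± 0.26 and 1.58 ± 0.26. NCAPH, the condensin subunit that closes the ring, had 8.08, 7.36 and 7.82 with PMA, against 8.15, 8.18 and 7.86 with DMSO in HL60, a difference of -0.31 ± 0.23 (adjusted p = 0.41). NCAPH had 6.05, 6.33 and 6.88 with PMA, against 8.52, 8.67 and 8.04 with DMSO in THP-1 and 7.01, 6.94 and 7.25 with PMA, against 9.29, 9.08 and 8.94 with DMSO in U937, and fell there by 1.99 ± 0.23 and 2.04 ± 0.23. The 95% interval of the difference in HL60 ran from -0.33 to 0.46 for CDC20, from -0.50 to 0.60 for AURKA and from -0.80 to 0.19 for NCAPH, which in each case leaves out a 2-fold fall.

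Single probe sets showed 2 kinds of pattern behind these values. Over the whole module, 804 of 999 probe sets fell in HL60, 820 in THP-1 and 822 in U937, and none rose, beside 8.35%, 9.16% and 10.2% of all probe sets with a single symbol. None of the 15 CDC20 probe sets and none of the 11 AURKA probe sets was called in HL60. In THP-1 14 of 15 and 8 of 11 fell, and in U937 14 of 15 and 9 of 11. NCAPH was split in HL60. Of its 26 probe sets, 7 fell there, by 1.16 to 1.97, and they are all among the 9 with the lowest numbers (2494491 and 2494494 to 2494499). The remaining 19 had differences from -0.32 to 0.67, with a median of 0.04. In THP-1 the same 7 and 14 of the other 19 fell, and in U937 the 7 and 16 of the 19. These sets were divided after their values in HL60 were seen and carry no test.
The mean of the 7 probe sets was 7.14, 6.99 and 7.20 in HL60 with PMA, against 8.42, 8.81 and 8.58 with DMSO. The mean of the other 19 was 8.42, 7.50 and 8.05 with PMA, against 8.05, 7.95 and 7.59 with DMSO. Of the 7, 5 were called as falling more than the rest of the gene in HL60, by 1.10 to 1.69 log2 (limma on the splicing index, adjusted p from 0.0048 to 0.015). The 7 were picked by their falls in these same samples, so these p-values are no separate support for the split. No NCAPH probe set passed that test for a difference between HL60 and another line, the lowest adjusted p being 0.0948 at 2494494 against THP-1. Positions of probe sets in the gene were not used here.

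**Figure D3:**
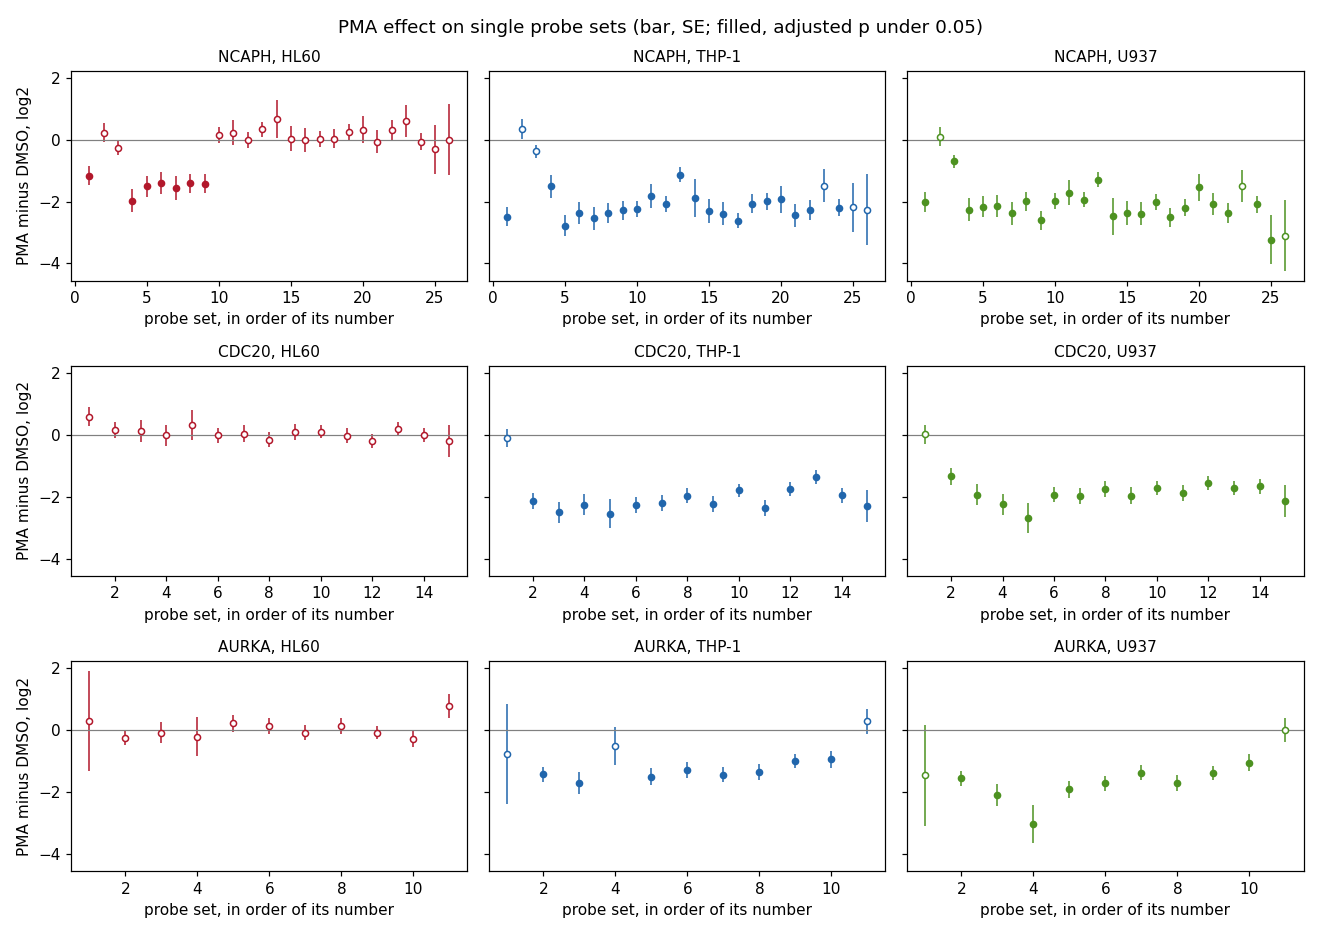
PMA minus DMSO in log2 units for the single probe sets of NCAPH (26), CDC20 (15) and AURKA (11) in HL60, THP-1 and U937, in order of probe-set number, with bars of 1 SE and filled points for an adjusted p under 0.05. In HL60 7 low-numbered NCAPH probe sets fall and the rest sit near 0, and the CDC20 and AURKA probe sets sit near 0.

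The effect of PMA differed between HL60 and THP-1 for 15 members, and between HL60 and U937 for 15 members that were not all the same. The estimate was lower in HL60 than in THP-1 for 39 of 46 members and lower than in U937 for 38. The comparisons with THP-1 and with U937 share the HL60 samples. The difference of effects passed the test for 15 members between HL60 and THP-1 (13 fell more in HL60 and 2 less), where 7.78% of all genes passed and 2.90% were lower in HL60. It passed for 15 members between HL60 and U937 (12 more, 3 less), where 7.73% of all genes did and 1.75% were lower. Its median over the members was -0.69 against THP-1 and -0.75 against U937, beside 0.06 and 0.23 over all genes. The background against U937 depends on the level of the arrays. As deposited, 285 of all 16260 genes were lower in HL60 and 972 higher. With arrays centred to a common median, 797 were lower and 924 higher, with a median of -0.06. The share of 1.75% is thus a low background for these falls. Where HL60 PMA values lie near the array's background, the size of these differences is approximate.

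STMN1 had the largest difference between HL60 and THP-1, -2.97 ± 0.54 (95% interval from -4.11 to -1.83, limma adjusted p = 0.00169). TOP2A followed with -2.08 ± 0.38, CDC20 with 2.05 ± 0.27, ANLN with -1.98 ± 0.35 and MKI67 with -1.81 ± 0.47. CDC20 is the one of these 5 whose effect was higher in HL60. Between HL60 and U937 the largest differences were TOP2A -2.43 ± 0.38 (limma adjusted p = 0.000474), ANLN -2.33 ± 0.35, STMN1 -2.30 ± 0.54, CENPF -2.14 ± 0.41 and ASPM -1.98 ± 0.40. In that comparison CDC20, NCAPH and AURKA, not called in HL60, had differences of 1.84 ± 0.27, 1.73 ± 0.33 and 1.63 ± 0.37. AURKA differed by 1.11 ± 0.37 between HL60 and THP-1 (adjusted p = 0.0806; 0.0188 with the replicate block). No member passed between THP-1 and U937, where 4.76% of all genes did, and the median difference was -0.05. The largest estimate there was PLK1, -1.16 ± 0.35 (95% interval from -1.90 to -0.43, limma adjusted p = 0.0721), which passed with the replicate block (adjusted p = 0.0263). Without THP-1 PMA 3, PLK1 and CENPF passed. ERCC6L had 1.04 ± 0.42, DLGAP5 -0.98 ± 0.46, SGO1 0.79 ± 0.37 and CENPF -0.79 ± 0.41, none of them called.
Across the 46 members the effects of HL60 and THP-1 had a Pearson correlation of 0.57, those of HL60 and U937 0.43 and those of THP-1 and U937 0.61. These are descriptions over genes of the same arrays, and genes are not independent replicates.

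**Figure D4:**
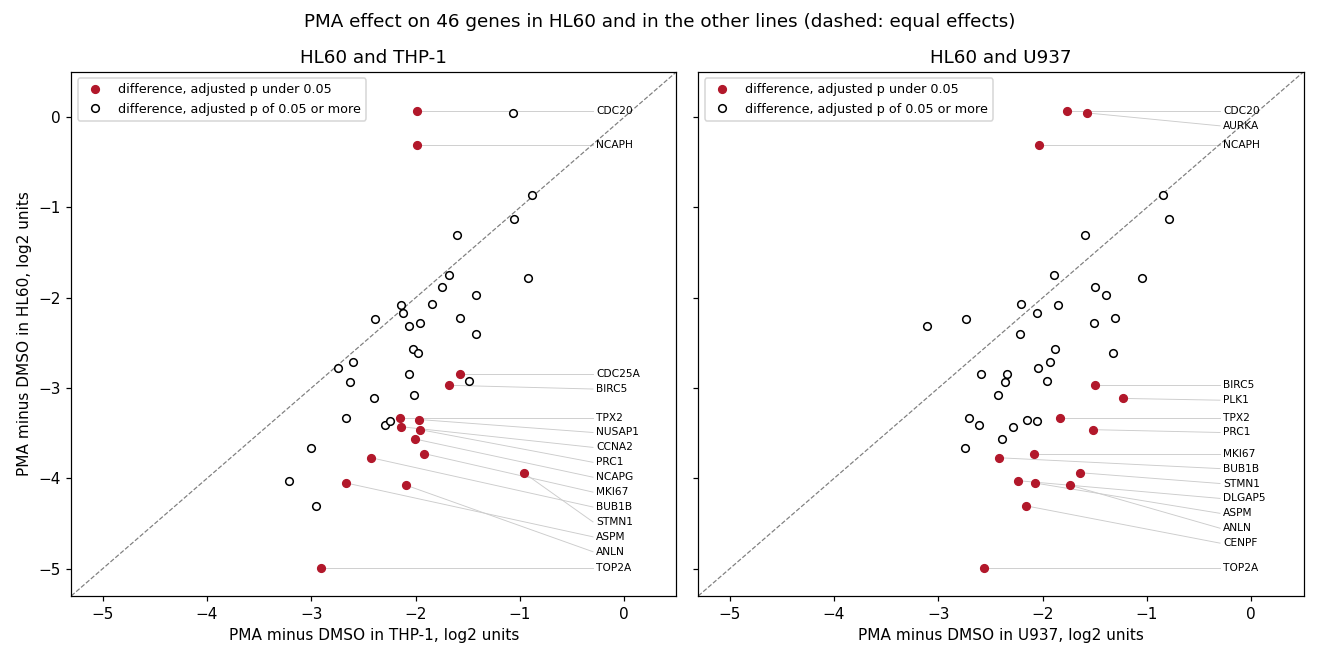
PMA minus DMSO in HL60 (vertical, log2 units) against THP-1 (left panel) and U937 (right panel) for the 46 genes, with a dashed line of equal effects. Filled, named points differ at an adjusted p under 0.05. Most points lie under the line, and CDC20, NCAPH and AURKA lie above it.

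With DMSO, the module's level was lower in HL60 than in U937. Since the lines may have been normalized apart, these levels are set across normalizations, and all genes together shifted by -0.23 between HL60 and U937 and by -0.31 between THP-1 and U937 as deposited. Between HL60 and U937, 30 members were lower and none higher (background 19.0% lower, 22.9% called in either direction), with a median of -1.03. ERCC6L differed by -3.09 ± 0.30, which is approximate, since its HL60 mean lay near the array's background. CCNB1 differed by -2.03 ± 0.25, SPC25 by -1.96 ± 0.38, CCNB2 by -1.78 ± 0.41 and TPX2 by -1.72 ± 0.25. With arrays centred to a common median, 22 were lower and 1 higher, beside 2091 lower and 1946 higher of all 16260 genes. Between HL60 and THP-1, 6 members were called (background 16.6%). CDC20 differed by -2.11 ± 0.19, CCNB1 by -1.49 ± 0.25, CDC25C by -1.37 ± 0.33, SMC2 by -1.18 ± 0.28 and NUF2 by -1.15 ± 0.30, all lower in HL60. NCAPD2 was higher in HL60, by 0.69 ± 0.22. After centring 5 members were lower and 2 higher, beside 2070 lower and 2358 higher of all genes. Without THP-1 DMSO 3, 13 members were called, beside 2584 of all genes.
CDC20, one of the members with no call in HL60, stood lower there with DMSO than in either other line, with differences of -2.11 ± 0.19 against THP-1 and -1.19 ± 0.19 against U937. Its PMA means were 9.41 ± 0.04, 9.47 ± 0.44 and 8.77 ± 0.13 (SD, n = 3 each) in HL60, THP-1 and U937. AURKA and NCAPH were also lower in HL60 than in U937 with DMSO, with differences of -1.24 ± 0.26 and -1.04 ± 0.23. That was not particular to them, since 30 of 46 members were lower there, with a median of -1.03. Neither AURKA nor NCAPH was called between HL60 and THP-1 with DMSO. A link between these levels and the missing falls was not tested. Between THP-1 and U937, 14 members were lower in THP-1 and 3 higher, beside 3041 lower and 1226 higher of all 16260 genes (26.2% called). The largest were ERCC6L -2.60 ± 0.30, MKI67 -1.41 ± 0.34, TPX2 -1.30 ± 0.25, AURKB -1.30 ± 0.19 and ESPL1 -1.21 ± 0.18, and BIRC5, ASPM and CDC20 were the 3 that were higher in THP-1. Quantile normalization left 11 of these calls, 8 lower and 3 higher, beside 2245 lower and 2183 higher of all 16260 genes. Without THP-1 DMSO 1 10 were called, beside 3320 of all genes.

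Some probe sets moved apart from their own gene. Of 859 member probe sets tested, 134 in 33 genes were called in HL60 (15.6%, background 3.76%), 52 in 23 genes in THP-1 (6.05%, background 1.95%) and 24 in 14 genes in U937 (2.79%, background 1.33%). The splicing index sets each probe set against the mean of the other tested probe sets of its gene, and a call needed 1 log2 unit or more at an adjusted p under 0.05. Tested were probe sets with a mean over all 18 samples above 5.17, in genes with at least 5 of them. A probe set could thus pass through its DMSO values and lie near background with PMA, as NEK2 2454455 did in HL60 (2.18 with PMA, 7.18 with DMSO). An index above 0 means that the probe set fell less than its gene or did not fall. The index was above 0 for 79 and below 0 for 55 in HL60, for 42 and 10 in THP-1, and for 21 and 3 in U937. Of those above 0, 14 in HL60, 14 in THP-1 and 8 in U937 had a PMA mean no lower than the DMSO mean. With limma's diffSplice the counts were 82, 36 and 13. Without both U937 samples numbered 2, U937 had 5 calls. The number of genes that fell and the size of their falls also differed between lines, and their part in these counts was not tested. Over all genes 10.7%, 13.2% and 16.5% were called lower in HL60, THP-1 and U937. The background shares thus come mostly from genes not called lower and are not a like comparison for this module.
In all 3 lines 18 probe sets were called, all with an index above 0, 3 in CENPE, 2 each in BUB1B, CDC25A, CENPA, SMC4 and TPX2 and 1 each in ASPM, AURKB, BIRC5, NUF2 and SMC2. Without both U937 samples numbered 2 this count was 4, and with diffSplice it was 10, of which 8 are among the 18. The share of all tested probe sets called in all 3 lines was not computed, so these counts have no background beside them. Of the 18, 5 in HL60, 8 in THP-1 and 6 in U937 had a PMA mean no lower than the DMSO mean. ASPM probe set 2449614 had a mean of 8.66 with PMA and 8.73 with DMSO in HL60, 8.88 and 8.70 in THP-1 and 8.69 and 8.45 in U937, and its differences from the gene were 4.51, 3.04 and 2.49. The largest in HL60 was STMN1 2402475 (5.40 ± 0.70), with means of 7.46 with PMA and 6.54 with DMSO, followed by that ASPM probe set, TPX2 3881447 (4.26 ± 0.41), ANLN 2997377 (3.83 ± 0.46) and NUF2 2364440 (3.82 ± 0.46). In THP-1 the ASPM probe set was followed by CENPE 2780255 (3.00 ± 0.35) and 2780254 (2.53 ± 0.35), ANLN 2997377 (2.49 ± 0.46) and NCAPH 2494492 (2.45 ± 0.39). In U937 the largest were SMC2 3182783 (2.68 ± 0.32), the ASPM probe set, CDC25A 2673107 (2.46 ± 0.39), CENPE 2780255 (2.42 ± 0.35) and BIRC5 3736293 (2.35 ± 0.46). CENPE 2780255 had 7.98 with PMA and 7.64 with DMSO in HL60.

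Most measured genes of further lists of the same machinery fell as well, and CDKN1A and RB1 rose. Of 120 genes in 7 further lists, 109 were measured. In HL60 69 fell and 2 rose, in THP-1 70 fell and 1 rose, and in U937 84 fell and 1 rose, with medians of -1.28, -1.18 and -1.46, and 64 fell in all 3 lines. Over all genes the shares that fell were 10.7%, 13.2% and 16.5%, those that rose 12.3%, 9.37% and 5.50%, and 5.93% fell in all 3 lines, and the counts of each list below stand against these. CDKN1A, the CDK inhibitor p21, rose by 3.79 ± 0.18, 3.17 ± 0.18 and 3.36 ± 0.18. RB1, the retinoblastoma protein, rose in HL60 by 0.93 ± 0.22 and had 0.03 ± 0.22 and -0.17 ± 0.22 in THP-1 and U937. Among the genes of mitotic entry, 11 of 15 fell in HL60, 11 in THP-1 and 12 in U937. The transcription factors MYBL2 and FOXM1, which drive many of the members, fell by 3.13, 1.92 and 2.24 and by 2.70, 1.80 and 1.74. BORA, the activator of Aurora A and PLK1, fell by 1.97, 2.46 and 2.34. CDK1 had no probe set with a single symbol and was not analysed here.

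Further centromere and kinetochore genes fell in 18, 17 and 22 of 22 cases in HL60, THP-1 and U937. KNL1, the checkpoint platform of the kinetochore, fell by 3.07, 2.33 and 2.18, SKA3 by 2.79, 2.21 and 2.61, and SKA2 by 2.59, 2.10 and 2.39. Of 8 further checkpoint genes, 4, 6 and 7 fell. KNTC1, a subunit of the RZZ complex, fell by 2.82, 2.13 and 2.43, TRIP13, which takes the checkpoint complex apart, by 2.22, 2.09 and 2.25, and SPDL1 by 1.66, 2.11 and 2.30. In the list of the anaphase-promoting complex, 4, 5 and 5 of 14 genes fell (28.6%, 35.7% and 35.7%, background 10.7%, 13.2% and 16.5%), with medians of -0.26, -0.64 and -0.82. Its inhibitor FBXO5 fell by 2.70, 1.65 and 2.00, its subunit ANAPC1 by 1.19, 1.21 and 1.74, and its ubiquitin-conjugating enzyme UBE2C by 1.82, 1.22 and 0.90.
Of the cohesin and condensin II genes, 10, 12 and 10 of 15 fell. SGO2 fell by 2.56, 2.37 and 1.97, NCAPG2 by 2.84, 1.82 and 1.56, and CDCA5, sororin, by 2.40, 1.75 and 1.85. Further spindle and cytokinesis genes fell in 16, 15 and 20 of 21 cases. SASS6, a centriole protein, fell by 2.80, 2.50 and 2.57, DIAPH3 by 2.65, 1.97 and 2.30, and SPAG5 by 2.84, 2.11 and 1.87. In the list of E2F factors, pocket proteins and CDKN1A, 6, 4 and 8 of 14 fell. E2F8, a repressor, fell by 2.86, 1.91 and 2.83, and RBL1, the pocket protein p107, by 2.72, 1.80 and 1.82. E2F1 fell by 0.50 in HL60 and 0.78 in U937 and had -0.44 ± 0.17 in THP-1 (adjusted p = 0.0739; 0.0344 with the replicate block). Its call in HL60 was lost under 16 alternatives (differences -0.56 to -0.38, adjusted p from 0.0524 to 0.191), among them median polish and leaving out any HL60 sample but PMA 2.

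**Figure D5:**
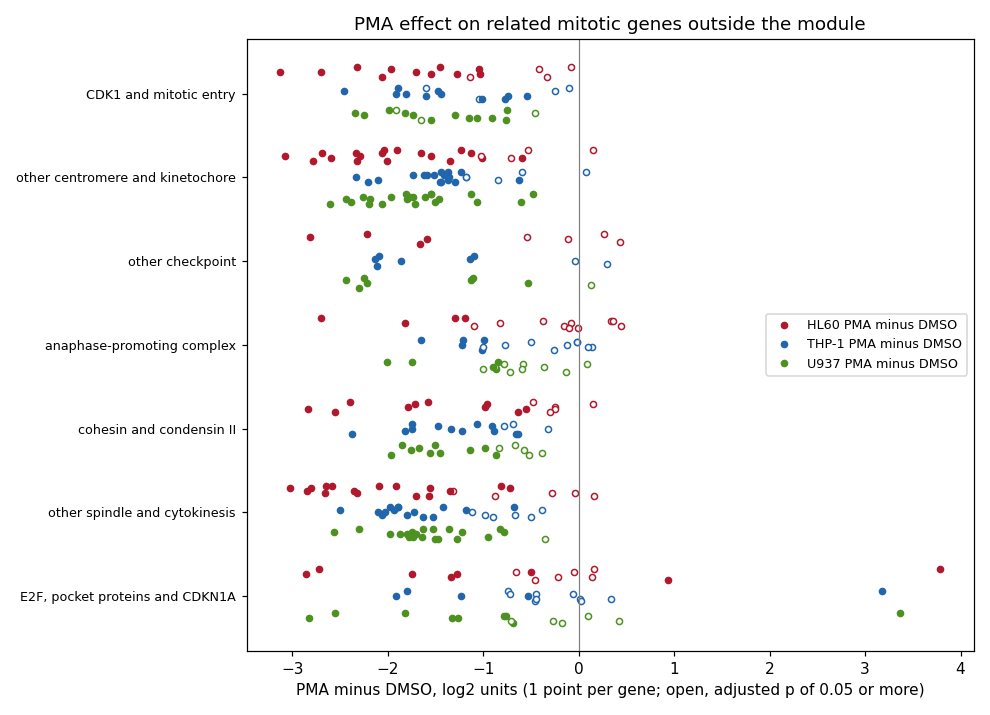
PMA minus DMSO in log2 units for 109 genes of 7 further lists of the mitotic machinery, 1 point per gene and line, open where the adjusted p was 0.05 or more. Most points lie left of 0, and CDKN1A lies between 3.17 and 3.79 in the 3 lines.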

How the data were processed

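The authors deposited log2 values of core probe sets, 1 per exon region, for 18 arrays, 6 groups of 3, made with Affymetrix Expression Console per the submitters' processing notes. How it corrected background and normalized, and its version, is not given in the sources used here. Values ran from 0.583 to 14.4, and all were used as deposited. Arrays have no read depth, and precision depends on how many there are and on the spread between them. Of 287329 probe sets, 261273 had 1 gene symbol in the platform annotation, 9155 several and 16901 none. Symbols were updated through RefSeq (GRCh38.p14, names only).

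Genes with at least 3 such probe sets were given the mean of them. One limma fit (3.58.1, R 4.3.3) of 6 group means covered 16260 genes, with 12 residual degrees of freedom, and gave PMA effects, their differences between lines and DMSO differences. The median SE was 0.226 for an effect and 0.320 for a difference. Exon usage was tested on the splicing index over 175137 probe sets. The methods were tested on simulated data. Samples of the same number and line deviated together (r from 0.285 to 0.79 over genes in all 9 pairs). Between different numbers of a line r ran from -0.654 to 0.436, so the ranges pooled over lines overlapped. For each PMA sample, though, r was highest with the DMSO sample of the same number. Deviations from a shared group mean depend on each other, so these r values are not independent. A fit with line and number as a block was an alternative. Other alternatives were quantile normalization, centring, filters, median polish, fewer samples and diffSplice. Genes named are the largest and smallest of each class, fixed examples, members not called, and the 5 largest differences per comparison. AURKA and NCAPH levels with DMSO, BIRC5, ASPM and NCAPD2 were added after their values were seen. The members, lists and rules were chosen with earlier results of these data known.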

Additional observations from a re-analysis of the deposited data

Results flagged for a closer look

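The PMA effect differed between lines for 30 pairs of a member and a comparison, by limma's test of the difference itself, adjusted over all genes, with HL60 in every pair. Differences are HL60 minus the other line, in log2 units.

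Against THP-1 the fall was larger in HL60 for CCNA2 (-1.28), CDC25A (-1.28), BIRC5 (-1.29), BUB1B (-1.35), ASPM (-1.39), TPX2 (-1.17), PRC1 (-1.50), ANLN (-1.98), NUSAP1 (-1.38), STMN1 (-2.97), NCAPG (-1.56), TOP2A (-2.08) and MKI67 (-1.81). It was smaller or absent in HL60 for CDC20 (2.05) and NCAPH (1.68).

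Against U937 the fall was larger in HL60 for PLK1 (-1.88), BIRC5 (-1.47), BUB1B (-1.36), CENPF (-2.14), ASPM (-1.98), DLGAP5 (-1.79), TPX2 (-1.49), PRC1 (-1.94), ANLN (-2.33), STMN1 (-2.30), TOP2A (-2.43) and MKI67 (-1.64). It was smaller or absent for AURKA (1.63), CDC20 (1.84) and NCAPH (1.73).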

How the results depend on the processing

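The count of members that fell with PMA held under all alternatives, at 41 to 43 in HL60, 41 to 46 in THP-1 and 42 to 46 in U937. The counts of differing members stayed between 11 and 21 (HL60 and THP-1) and between 11 and 22 (HL60 and U937). With the replicate block the falls were 43, 46 and 46, beside 2591, 3357 and 4141 of all 16260 genes. The differences with the block were 21 and 22, beside 2523 and 2668 of all genes. Without it 1265 and 1257 of all genes differed, so the block raised the calls over all genes too. Between THP-1 and U937, 1 member, PLK1, passed with the replicate block, PLK1 alone passed after centring, and leaving out single samples gave 0 to 2. The block thus added 6 differences between HL60 and THP-1 and 7 between HL60 and U937, added 2 falls in THP-1 and 1 in U937, and removed no member call. With DMSO, leaving out single samples gave 4 to 13 calls between HL60 and THP-1 (13 without THP-1 DMSO 3) and 10 to 19 between THP-1 and U937 (10 without THP-1 DMSO 1, 11 without U937 DMSO 1). Quantile normalization gave 11 between THP-1 and U937. Probe-set calls fell to 82 in HL60 and 13 in U937 with diffSplice, and to 5 in U937 without both samples numbered 2.

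AURKA in HL60 turned sign after centring (-0.0022), with median polish (-0.0037), with dim probe sets left out (-0.0259), and without HL60 DMSO 2, DMSO 3 or PMA 1. Leaving out single samples gave -0.0797 to 0.2613. The cause was not tested. Of 255 values of single genes, 22 lost their call under at least 1 alternative and 6 gained one. E2F1 in HL60 lost it in 16 settings. TPX2 between HL60 and THP-1 lost it in 17 settings (adjusted p from 0.0504 to 0.131), ASPM in 13, CCNA2 in 7 and MKI67 in 6, and MKI67 between HL60 and U937 in 11. MAD2L1 in U937 lost it in 5 and in HL60 in 2, and CCNB2 in U937 in 2. ESPL1 and INCENP in U937 lost it when only samples of that line were used. Without both U937 samples numbered 2, the differences of AURKA, DLGAP5, MKI67 and STMN1 between HL60 and U937 were not called, and 4 probe sets were called in all 3 lines (10 with diffSplice). Low signals in HL60 with PMA limit the size of its falls.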
